A study of Mus musculus with 8 samples.

Results

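Interferon-stimulated genes were followed in hearts of mice that lack a conserved enhancer of Actn2, the gene of the sarcomeric protein alpha-actinin 2. The set holds 41 genes chosen by symbol, all 41 were found among the 24516 genes of the count table, and all 41 passed the filter on low counts that left 15075 genes. Bulk RNA of hearts taken at postnatal day 40 (P40) was sequenced from mice of 3 genotypes. They were homozygous for the enhancer deletion (HOMO, n = 3 libraries), heterozygous for it (HET, n = 3 libraries) or wild type (WT, n = 2 libraries). The deletion was made with CRISPR/Cas9 and is carried by the animal as a whole, so it is not limited to a cell type. Per the labels the hearts came from 1 litter, and no treatment, infection or interferon was given to any group. Strain, sex and number of founder lines are not given in the labels.

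Interferons are secreted proteins that warn cells of viral or other nucleic acid. Type I interferons signal through the kinases JAK1 and TYK2 to a complex that holds STAT2 and IRF9 and binds the interferon-stimulated response element (ISRE), while interferon gamma acts through JAK1 and JAK2 and the gamma-activated sequence (GAS). The genes switched on in this way restrict virus entry and replication, sense foreign nucleic acid and load peptides for MHC class I. In an uninfected heart many of them are transcribed at a low resting level, in muscle cells as well as in endothelial and immune cells.

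The 2 regulatory letter patterns are shown first, because interferon signals act through them. The genes were chosen by symbol as interferon-stimulated, so an excess of these letters over all promoters is not an independent result. RefSeq promoter windows on GRCm38.p6, from 250 bases before to 50 after the start of transcription, were found for 30 of the 41 genes (36 windows); Mx1, Mx2, Dhx58, Zbp1, Ifi27, Parp9, Parp14, Rtp4, Iigp1, Usp18 and Tap2 are named only. Both strands were searched for the ISRE core, GAAA then any 2 bases then GAAA, and for the GAS letters, TTC then any 3 bases then GAA, which read the same on both strands. Below are stretches that end at or shortly before the start, 5′ to 3′ on the strand of the gene, with bases of annotated exons left out and with the matching letters in capitals. Bst2, Ifitm2 and Igtp are shown because they were lower in both deletion genotypes, Irgm2 because its sequence there is a near copy of that of Igtp, Gbp3 and Irf1 because each was lower in 1 deletion genotype, and Isg15 because its ISRE letters are repeated.
Bst2, chr8:71537473-71537622, minus strand: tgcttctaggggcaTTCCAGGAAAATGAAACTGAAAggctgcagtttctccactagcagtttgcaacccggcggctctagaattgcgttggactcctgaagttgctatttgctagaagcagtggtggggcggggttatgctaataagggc
Ifitm2, chr7:140955988-140956111, minus strand: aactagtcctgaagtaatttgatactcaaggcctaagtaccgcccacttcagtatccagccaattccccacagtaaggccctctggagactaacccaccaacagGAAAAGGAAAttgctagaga
Igtp, chr11:58199406-58199555, plus strand: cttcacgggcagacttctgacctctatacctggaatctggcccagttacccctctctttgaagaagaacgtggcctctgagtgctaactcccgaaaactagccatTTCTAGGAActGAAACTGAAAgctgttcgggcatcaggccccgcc
Irgm2, chr11:58214827-58214976, plus strand: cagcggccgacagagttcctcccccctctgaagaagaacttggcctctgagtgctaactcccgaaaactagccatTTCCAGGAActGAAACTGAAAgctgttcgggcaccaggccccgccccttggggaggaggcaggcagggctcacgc
Gbp3, chr3:142559894-142560025, plus strand: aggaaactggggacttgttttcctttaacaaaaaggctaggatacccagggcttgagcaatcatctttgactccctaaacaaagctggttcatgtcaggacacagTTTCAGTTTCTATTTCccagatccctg
Isg15, chr4:156200819-156200968, minus strand: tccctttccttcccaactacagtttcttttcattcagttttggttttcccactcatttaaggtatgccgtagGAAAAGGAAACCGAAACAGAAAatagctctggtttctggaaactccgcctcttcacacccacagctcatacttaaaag
Irf1, chr11:53769864-53770013, plus strand: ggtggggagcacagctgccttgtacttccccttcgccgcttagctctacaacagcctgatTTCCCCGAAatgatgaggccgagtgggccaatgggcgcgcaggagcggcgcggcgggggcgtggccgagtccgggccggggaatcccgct

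Isg15 held 3 overlapping ISRE matches and Bst2 and Gbp3 held 2 each, on the reverse strand in Gbp3. In Bst2 the GAS letters overlap the first ISRE match, in Igtp and Irgm2 they lie just before it, and Irf1 held GAS letters alone. The ISRE core was present in 16 of the 36 windows (44.4%), beside 3.44% of all 32851 promoter windows of the same length. GAS letters were present in 10 of the 36 (27.8%), beside 8.3% of all windows. At least 1 of the patterns was found for 21 genes and both for 5. Genes with and without the ISRE letters were both found among those that differed between genotypes. Of the 16 genes with an ISRE match, 4 were lower in HOMO (25%, beside 12.4% of all tested genes) and 6 in HET (37.5%, beside 12.8%) than in WT by edgeR's test, with median log2 fold changes of -0.57 and -0.70. Of the 14 genes without one, 4 were lower (28.6%) and 1 higher in HOMO and 3 were lower in HET (21.4%), with medians of -0.37 and -0.38, while the median over all tested genes was -0.03 in both comparisons. These calls and medians are from the fit of all 8 libraries, and most of the calls ended without the second WT library (WT 2), as given by gene below. A match is a description of these letters and not a binding site.

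**Figure D1:**
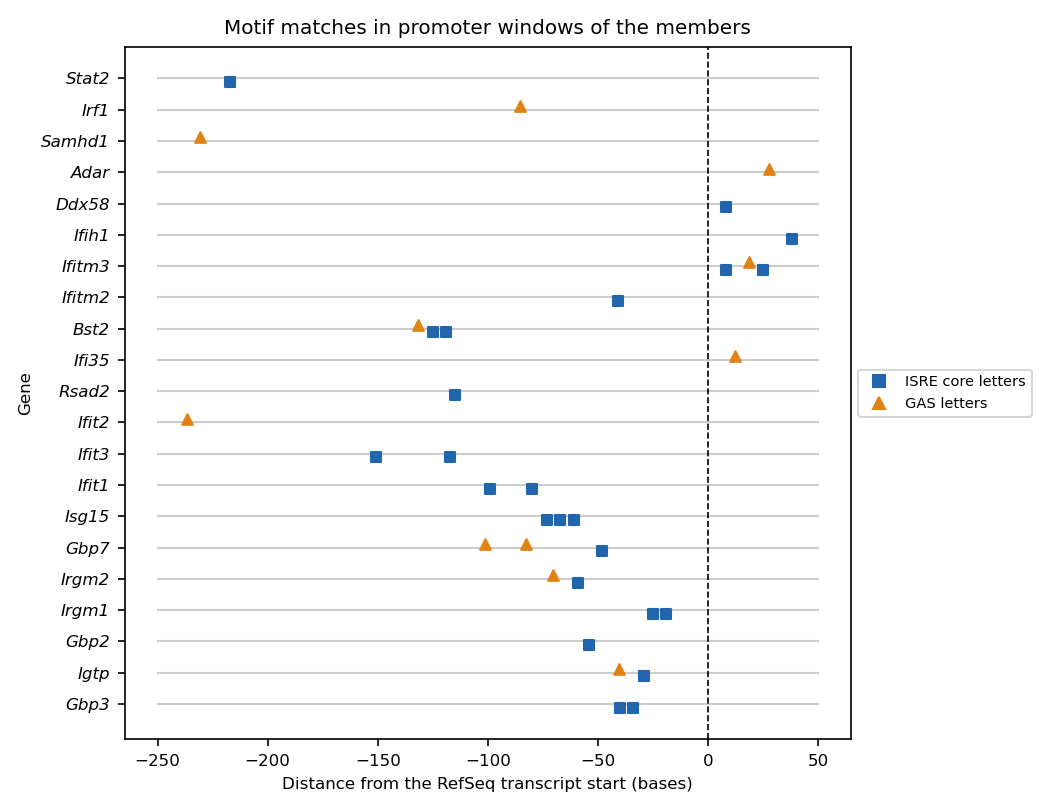
Positions of the ISRE core and GAS letters in the RefSeq promoter windows of the 21 interferon-stimulated genes with a match, in bases from the start of transcription; each symbol is 1 match. The 3 matches of Isg15 and the pairs in Bst2 and Gbp3 lie next to each other, and most matches fall within the last 150 bases before the start.

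Libraries held 22230090 to 55902737 counts, and levels are given as CPM, counts scaled by TMM to a library of 1e6. Heart muscle markers summed to 76450 to 84427 CPM in HOMO, 77005 to 80328 CPM in HET and 86349 and 99218 CPM in WT, so the tissue label is borne by its markers. Actn2 itself had 2115, 1611 and 1791 CPM in HOMO and 1693, 1546 and 1638 CPM in HET, against 2187 and 2703 CPM in WT; the log2 fold change was -0.41 in HOMO (SE 0.14, adjusted p = 0.0774) and -0.59 in HET (SE 0.14, adjusted p = 0.0193; -0.40 with adjusted p = 0.128 without WT 2, -0.55 with 0.0725 without HET 2 and -0.59 with 0.0595 without HET 3). The HET call also ended in a fit of only HET and WT (-0.59, 0.0536) and with replicate number as a block (-0.59, 0.0546). It ended as well in a fit corrected for GC content and for the lengths of transcript and 3′ UTR, named the gene property correction below (-0.27, 0.219). The WT libraries resembled each other less (r = 0.957 across the log2 CPM of tested genes) than any pair of deletion libraries did (0.973 to 0.985). WT 2 stood apart in the interferon-stimulated genes: it was the highest of the 8 libraries in 31 of 41, and it was above WT 1 in 35 of 41, beside 49.2% of all tested genes. The calls of the 41 genes against WT below are therefore also given without WT 2 where that library decides them. Counts of called cell type markers are from the fit of all 8 libraries only.

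The summed level of the 41 genes lay below WT in both deletion genotypes, by a margin that was wider for WT 2 than for WT 1. It was 871, 959 and 788 CPM in HOMO and 932, 820 and 872 CPM in HET, against 1055 and 1415 CPM in WT. All 6 deletion libraries lay below both WT libraries in this sum. In bulk tissue, fewer cells of a type and less RNA per cell cannot be told apart. By the quasi-likelihood test of edgeR, with p-values adjusted by Benjamini-Hochberg over the 15075 tested genes, 10 of the 41 were lower and 1 was higher in HOMO (24.4% lower, beside 12.4% of all tested genes; 15.3% of all tested genes were higher). Called in either direction were 26.8% of the genes, close to the 27.7% of all tested genes, so their number is not a result about the set. In HET 12 were lower and 0 higher (29.3% lower, beside 12.8% of all tested genes; 15.2% of all tested genes were higher and 28% were called in either direction). For the 0 higher in HET, DESeq2 gave 1 and limma-voom 0. At an unadjusted p under 0.05, 18 genes (43.9%) were called in HOMO and 22 (53.7%) in HET, in either direction, beside 40.2% of all tested genes in each.

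The median log2 fold change of the 41 genes was -0.51 in HOMO and -0.58 in HET, while the median over all tested genes was -0.03 in both. It was below 0 in 35 of 41 genes in HOMO (85.4%, beside 52.1% of all tested genes) and in 37 of 41 in HET (90.2%, beside 51.9%), and above 0 in the other 6 in HOMO and 4 in HET, where 47.9% and 48.1% of all tested genes were above 0. Every deletion library lay below both WT libraries for 17 genes in HOMO (41.5%, beside 27.2%) and for 24 in HET (58.5%, beside 25.6%). Every library lay above WT for 1 gene in HOMO and 2 in HET, where 27.6% and 25.7% of all tested genes did so. Both WT libraries were above all 6 deletion libraries in 16 genes (39%, beside 20.7% of all tested genes): Irf1, Irf7, Irf9, Isg15, Mx1, Ifi27, Ifi35, Bst2, Ifitm2, Ifitm3, Gbp2, Igtp, Tap2, Adar, Lgals3bp and Zbp1. The HOMO and HET comparisons share the WT libraries, so their likeness is not independent. Genes that passed the test in both were Irf7, Ifi27, Bst2, Ifitm2, Ifitm3, Igtp, Tap2 and Lgals3bp.

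**Figure D2:**
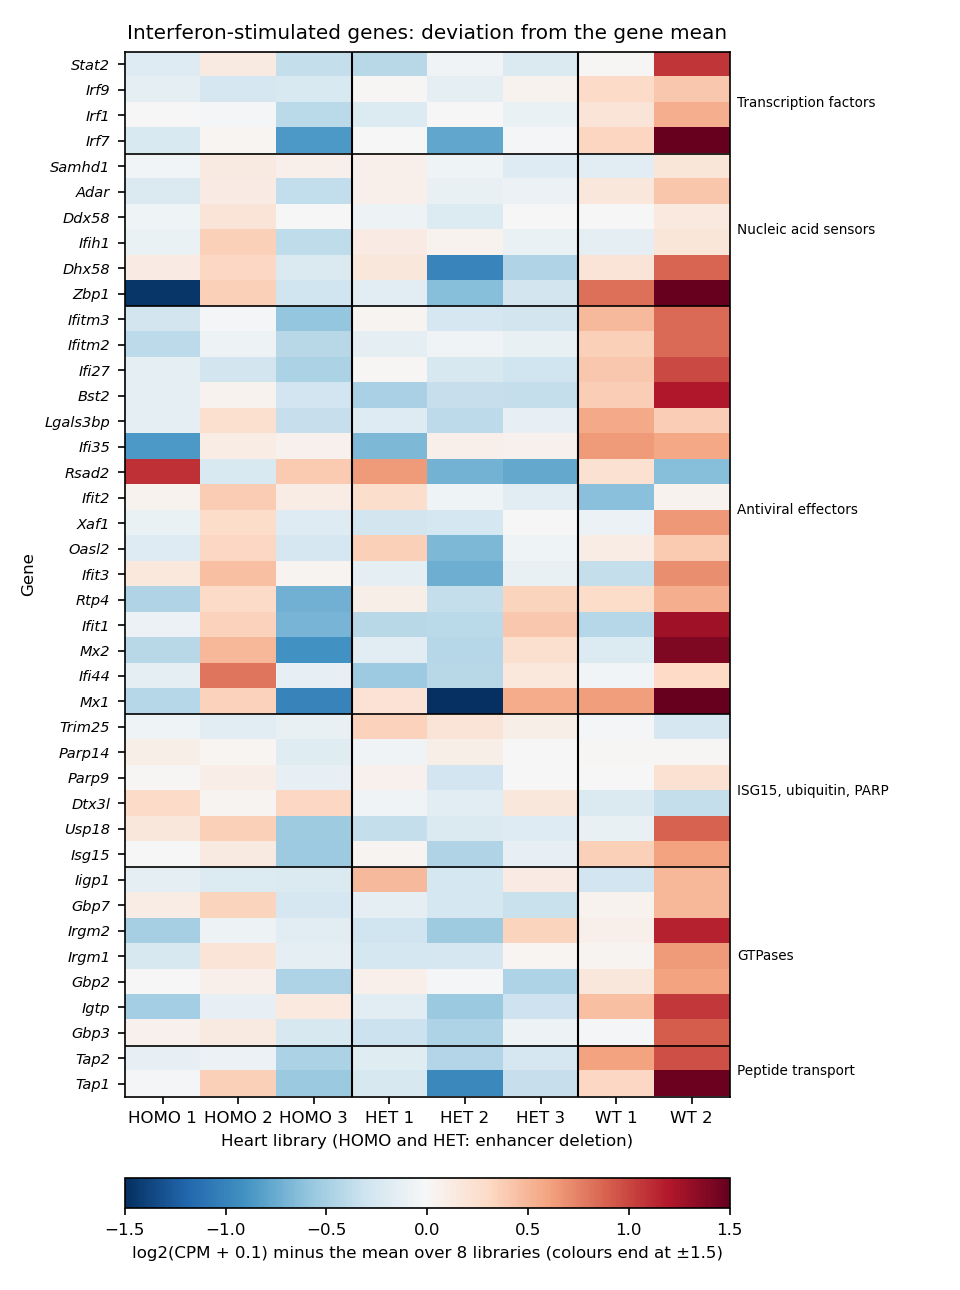
Level of each of the 41 interferon-stimulated genes (rows, grouped by role) in each of the 8 libraries (columns, HOMO, HET, WT) as log2 CPM minus the gene's mean over libraries. The WT 2 column is the highest in 31 of the 41 rows, and the WT 1 column is closer to the deletion libraries.

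Among the transcription factors, Irf7 was lower in both deletion genotypes, and Irf1 and Irf9 passed the test in HOMO. Irf7, the factor that amplifies type I interferon production, had 10.8, 12.9 and 6.91 CPM in HOMO and 12.5, 7.33 and 12.3 CPM in HET, against 15.8 and 37.1 CPM in WT. Its highest deletion library was below WT 1, and WT 2 was far above WT 1. Its log2 fold change was -1.37 in HOMO (SE 0.38, adjusted p = 0.0248) and -1.31 in HET (SE 0.38, adjusted p = 0.0302).

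Irf9, the DNA-binding partner of STAT2, had 23.4, 21.5 and 21.8 CPM in HOMO and 26.04, 23.2 and 26.7 CPM in HET, against 31.4 and 34.1 CPM in WT. All 6 deletion libraries were below both WT libraries, which were close to each other, while HOMO and HET overlapped. On the log2 scale it differed by -0.56 in HOMO (SE 0.13, adjusted p = 0.0103) and -0.37 in HET (SE 0.13, adjusted p = 0.0547). Irf1, which is induced early by interferon gamma, had 24.8, 24.3 and 18.6 CPM in HOMO and 21.5, 24.5 and 23.1 CPM in HET, against 28.3 and 36.0 CPM in WT. All 6 deletion libraries were below both WT libraries, and the log2 fold change was -0.51 in HOMO (SE 0.17, adjusted p = 0.0439) and -0.48 in HET (SE 0.17, adjusted p = 0.0553).

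Stat2, the STAT used by type I interferons and the most abundant of the 4 factors by mean CPM, had 25.7, 32.1 and 22.9 CPM in HOMO and 21.96, 28.3 and 25.2 CPM in HET, against 29.7 and 61.4 CPM in WT. WT 1 lay inside the HOMO range and just above the HET range. Stat2 had a log2 fold change of -0.76 in HOMO (SE 0.27, adjusted p = 0.0604) and -0.86 in HET (SE 0.27, adjusted p = 0.0396). Without WT 2, the log2 fold change in HET was -0.20 for Stat2 (adjusted p = 0.559) and -0.53 for Irf7 (0.389), and in HOMO it was -0.59 for Irf7 (0.339), -0.47 for Irf9 (0.0669) and -0.29 for Irf1 (0.346), so each of these calls ended. Leaving out single deletion libraries ended the Irf7 call in HOMO (adjusted p = 0.058 without HOMO 1 and 0.0773 without HOMO 3) and in HET (0.0942 without HET 2 and 0.0569 without HET 3), the Irf1 call for each of the 6 (0.0603 to 0.139) and the Stat2 call without HET 1, HET 2, HET 3, HOMO 1 or HOMO 3 (0.0501 to 0.11). The gene property correction ended those of Irf7 (-0.99 in HOMO, adjusted p = 0.104; -0.91 in HET, 0.136), Irf1 (-0.26, 0.308) and Stat2 (-0.90, 0.0677), and kept that of Irf9.

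Of the 16 antiviral effectors, 5 were lower in both HOMO and HET: Ifitm2, Ifitm3, Ifi27, Bst2 and Lgals3bp. That is 31.2% in each, beside 12.4% of all tested genes in HOMO and 12.8% in HET. Ifitm3, whose protein blocks virus fusion at endosomal membranes and which had the highest level of the antiviral effectors, had 64.1, 76.6 and 52.1 CPM in HOMO and 80.2, 65.5 and 64.4 CPM in HET, against 109 and 140 CPM in WT. Ifitm2, its neighbour on chromosome 7 and close relative, had 55.5, 69.3 and 54.8 CPM in HOMO and 65.7, 70.1 and 67.4 CPM in HET, against 93.5 and 131 CPM in WT. For both genes all 6 deletion libraries were below both WT libraries, and HOMO and HET overlapped. The log2 fold change of Ifitm3 was -0.96 in HOMO (SE 0.18, adjusted p = 0.00396) and -0.83 in HET (SE 0.18, adjusted p = 0.007). That of Ifitm2 was -0.91 in HOMO (SE 0.16, adjusted p = 0.00296) and -0.73 in HET (SE 0.16, adjusted p = 0.00765). The 2 genes are similar in sequence and reads could be split between them, so each one's own share is uncertain.

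Ifi27, a small membrane protein and one of the most strongly interferon-induced genes in people, had 29.7, 27.0 and 23.55 CPM in HOMO and 33.2, 27.5 and 26.5 CPM in HET, against 43.1 and 65.1 CPM in WT. Bst2, which encodes tetherin and holds budding virions on the cell surface, had 24.9, 28.5 and 22.5 CPM in HOMO and 19.7, 21.7 and 21.5 CPM in HET, against 35.5 and 63.4 CPM in WT. All deletion libraries were below both WT libraries for both genes, and the HOMO libraries of Bst2 were all above its HET libraries. The log2 fold change of Ifi27 was -1.02 in HOMO (SE 0.19, adjusted p = 0.00357) and -0.90 in HET (SE 0.19, adjusted p = 0.00603). That of Bst2 was -0.97 in HOMO (SE 0.21, adjusted p = 0.00814) and -1.24 in HET (SE 0.21, adjusted p = 0.00252).

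Lgals3bp, a secreted glycoprotein that binds galectins, had 26.8, 34.8 and 23.2 CPM in HOMO and 25.7, 22.4 and 27.0 CPM in HET, against 43.5 and 37.9 CPM in WT. It was the one called antiviral effector with WT 1 above WT 2. Its log2 fold change was -0.53 in HOMO (SE 0.18, adjusted p = 0.0477) and -0.70 in HET (SE 0.18, adjusted p = 0.0147).

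Without WT 2, Ifi27 (-0.65, adjusted p = 0.0299), Ifitm2 (-0.61, 0.02) and Ifitm3 (-0.73, 0.0338) stayed past the threshold in HOMO, and Bst2 (-0.73, 0.0136) and Lgals3bp (-0.77, 0.0286) in HET. The other calls ended without it: in HOMO Bst2 (-0.45, 0.0984) and Lgals3bp (-0.59, 0.0843), and in HET Ifi27 (-0.54, 0.0622), Ifitm2 (-0.43, 0.0752) and Ifitm3 (-0.61, 0.0638). The Lgals3bp call in HOMO also ended without WT 1 (adjusted p = 0.145), HOMO 1 (0.129), HOMO 3 (0.152), HET 1 (0.0689), HET 2 (0.0613) or HET 3 (0.0661), and the call in HET without HET 2 (0.0591). The gene property correction ended the calls of Ifitm2 (-0.24 in HOMO, adjusted p = 0.247; -0.08 in HET, 0.723), Ifitm3 (-0.40, 0.123; -0.32, 0.214) and Lgals3bp (-0.11, 0.736; -0.29, 0.329), of Bst2 in HOMO (-0.29, 0.246) and of Ifi27 in HET (-0.43, 0.0775).

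**Figure D3:**
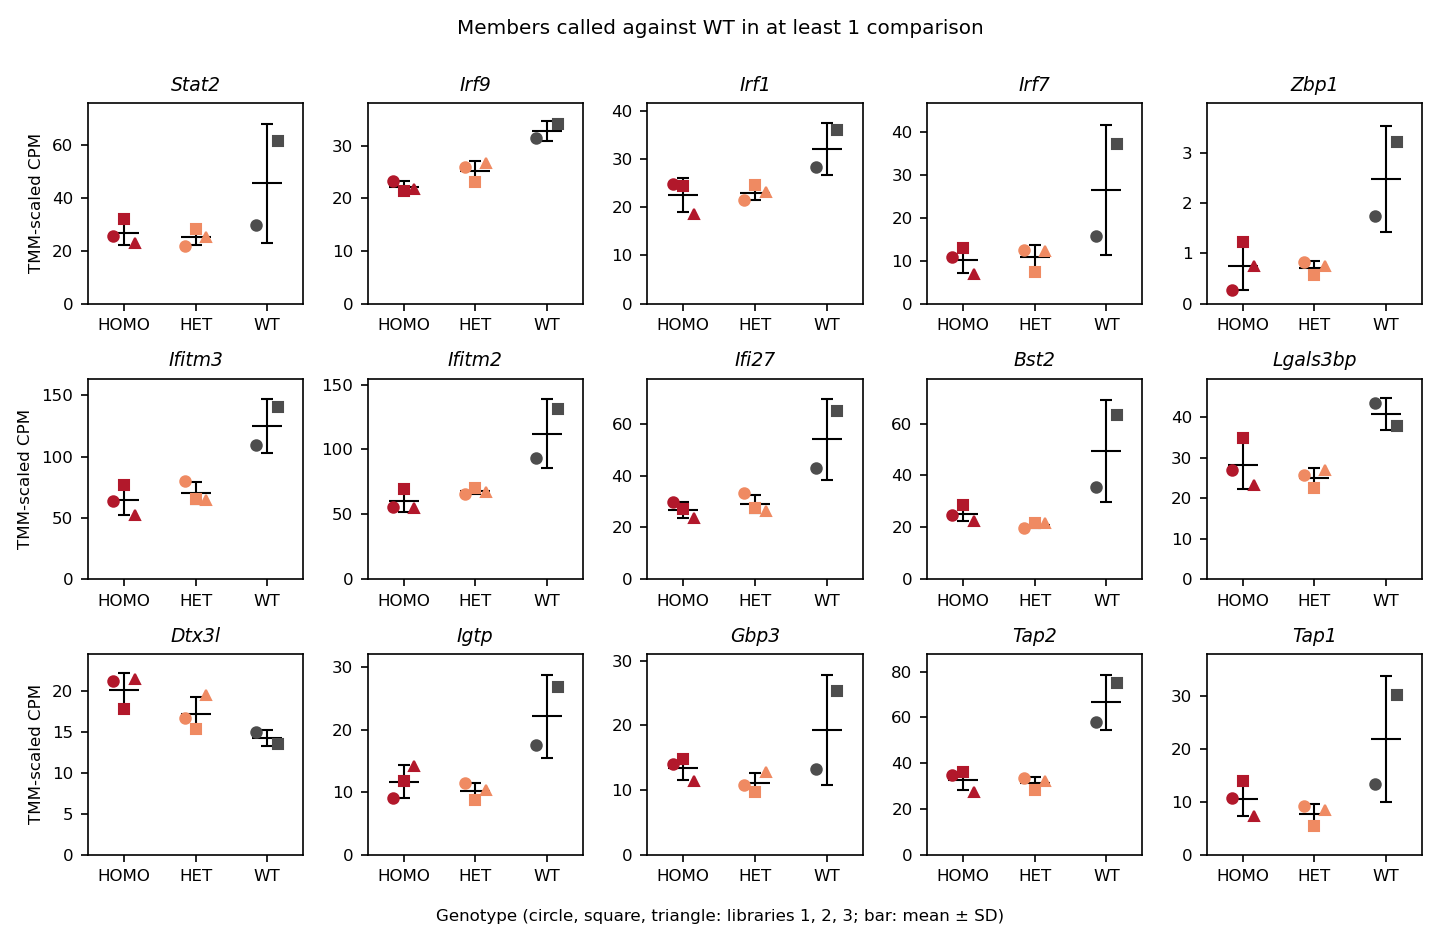
CPM in each library (points) of the 15 interferon-stimulated genes that passed the test in at least 1 comparison with WT, with HOMO left, HET in the middle and WT right (circle, square and triangle for replicates 1, 2 and 3), and bars of the group mean ± SD. Ifitm3, Ifitm2, Ifi27, Bst2 and Tap2 have all 6 deletion libraries below both WT libraries, and WT 2 lies far above WT 1 in Stat2, Irf7, Tap1 and Gbp3.

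The remaining 11 antiviral effectors did not pass the test in either comparison. Mx1 and Mx2, GTPases that trap viral nucleocapsids, had log2 fold changes of -1.64 and -0.98 in HOMO and -1.46 and -0.93 in HET, with standard errors of 0.51 to 0.83. Mx1 was near the detection limit, at 0.489, 0.906 and 0.295 CPM in HOMO and 0.817, 0.0939 and 1.06 CPM in HET, against 1.12 and 2.46 CPM in WT. The Ifit genes, whose proteins bind foreign RNA, did not move together: Ifit1 had -0.75 in both HOMO and HET, Ifit3 -0.04 and -0.58, and Ifit2 0.43 and 0.27. Ifit2 had 20.2, 25.3 and 21.0 CPM in HOMO and 23.4, 18.6 and 17.2 CPM in HET, against 12.5 and 20.2 CPM in WT, and it passed the test in HOMO when WT 2 was left out (log2 fold change 0.86, adjusted p = 0.0277). Rsad2, which encodes the antiviral enzyme viperin, varied widely within groups, with 44.1, 17.6 and 27.2 CPM in HOMO and 32.3, 12.6 and 12.1 CPM in HET, against 24.1 and 13.2 CPM in WT. Ifi35 had -0.78 and -0.75 (adjusted p = 0.0779 in HOMO and 0.0875 in HET), Rtp4 -0.65 and -0.38, Xaf1 -0.31 and -0.50, Oasl2 -0.29 and -0.33, and Ifi44 0.12 and -0.38. Ifit reads may be shared with close copies, so single Ifit values are uncertain.

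Of the 6 nucleic acid sensors, Zbp1 passed the test, in HET (16.7% lower, beside 12.8% of all tested genes). Zbp1, a sensor of left-handed nucleic acid that triggers necroptosis, had 0.275, 1.22 and 0.738 CPM in HOMO and 0.817, 0.564 and 0.752 CPM in HET, against 1.73 and 3.22 CPM in WT. The deletion libraries were all below WT, on 9 to 93 counts a library. Its log2 fold change was -1.71 in HOMO (SE 0.60, adjusted p = 0.0549) and -1.80 in HET (SE 0.61, adjusted p = 0.0484). The HET call ended without WT 2 (-1.26, adjusted p = 0.304), HET 1 (-1.88, 0.0831), HET 2 (-1.65, 0.135), HET 3 (-1.85, 0.107) or HOMO 3 (-1.81, 0.0699), and with the correction for gene properties (-1.497, 0.132). Samhd1, which depletes deoxynucleotides and was the sensor-group gene with the highest mean CPM, had 34.9, 39.5 and 38.1 CPM in HOMO and 37.8, 34.3 and 31.4 CPM in HET, against 32.2 and 40.9 CPM in WT. Its groups overlapped, with log2 fold changes of 0.04 in HOMO (SE 0.14, adjusted p = 0.876) and -0.08 in HET (SE 0.14, adjusted p = 0.704). The RNA helicases Ddx58 (RIG-I) and Ifih1 (MDA5) had -0.03 and -0.04 in HOMO and -0.17 and 0.00 in HET, while their relative Dhx58 (LGP2), at 1.57 to 5.96 CPM, had -0.50 and -0.96. Adar, which edits adenosine to inosine in double-stranded RNA, had -0.43 in HOMO (adjusted p = 0.0727) and -0.33 in HET (0.16), with both WT libraries above all deletion libraries.

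Of the 6 genes of ISG15, ubiquitin and ADP-ribose transfer, 1 passed the test, in HOMO, and it was higher (16.7%, beside 15.3% of all tested genes). Dtx3l, a ubiquitin ligase that works in a complex with PARP9, had 21.3, 17.8 and 21.5 CPM in HOMO and 16.7, 15.4 and 19.5 CPM in HET, against 14.96 and 13.6 CPM in WT. It was the one gene of the set with all libraries of both deletion genotypes above WT, with a log2 fold change of 0.50 in HOMO (SE 0.17, adjusted p = 0.0465) and 0.27 in HET (SE 0.17, adjusted p = 0.253). The call in HOMO ended without WT 2 (adjusted p = 0.162), HOMO 1 (0.124), HOMO 2 (0.0512), HOMO 3 (0.138), HET 2 (0.0546) or HET 3 (0.0507), where the log2 fold change stayed between 0.46 and 0.59, and with the correction for gene properties (0.12, 0.682). Parp9 has its start next to that of Dtx3l on the opposite strand, and the annotated genes overlap; strand use in the counting is not given in the sources used here, so reads there cannot be assigned to 1 of them. Parp9 had -0.12 and -0.19, and Parp14, an ADP-ribosyl transferase, -0.04 and -0.01; the gene property correction gave Parp14 a call in both genotypes (-0.54, adjusted p = 0.0155 in HOMO; -0.496, 0.0234 in HET).

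Trim25, the ubiquitin ligase that acts on RIG-I, had the highest mean CPM of all 41 genes, with 87.6, 81.3 and 85.1 CPM in HOMO and 116, 105 and 97.7 CPM in HET, against 89.4 and 76.9 CPM in WT. HET stood above both other groups without overlap, and the log2 fold change was 0.03 in HOMO (SE 0.12, adjusted p = 0.898) and 0.35 in HET (SE 0.12, adjusted p = 0.0556). Isg15, a ubiquitin-like modifier named after the class, had 3.94, 4.36 and 2.69 CPM in HOMO and 4.08, 2.88 and 3.63 CPM in HET, against 5.09 and 6.06 CPM in WT. It did not pass the test (-0.60 in HOMO, adjusted p = 0.147; -0.66 in HET, adjusted p = 0.116), although all deletion libraries were below WT. Usp18, which removes ISG15 and damps the type I receptor, had -0.43 and -0.74.

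All 7 interferon-inducible GTPase genes had log2 fold changes below 0 in both genotypes, beside 52.1% of all tested genes in HOMO and 51.9% in HET. Of the 7, 1 passed the test in HOMO (14.3% lower, close to the 12.4% of all tested genes). In HET 2 passed it (28.6% lower, beside 12.8%). The GTPases attack the vacuoles of intracellular pathogens. Igtp (also named Irgm3) had 8.98, 11.8 and 14.2 CPM in HOMO and 11.4, 8.70 and 10.3 CPM in HET, against 17.5 and 26.8 CPM in WT. All 6 deletion libraries were below both WT libraries, HOMO and HET overlapped, and the log2 fold change was -0.92 in HOMO (SE 0.24, adjusted p = 0.0171) and -1.13 in HET (SE 0.24, adjusted p = 0.00709). Gbp3, a guanylate-binding protein, had 14.1, 14.8 and 11.3 CPM in HOMO and 10.7, 9.74 and 12.8 CPM in HET, against 13.3 and 25.3 CPM in WT. WT 1 lay within the HOMO range, and the log2 fold change was -0.53 in HOMO (SE 0.26, adjusted p = 0.151) and -0.80 in HET (SE 0.26, adjusted p = 0.0399).

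Iigp1, an immunity-related GTPase and the most abundant of the group by mean CPM, had 36.7, 35.0 and 34.9 CPM in HOMO and 56.6, 33.6 and 44.1 CPM in HET, against 33.2 and 57.3 CPM in WT. Its groups overlapped, with log2 fold changes of -0.35 in HOMO (SE 0.24, adjusted p = 0.316) and -0.02 in HET (SE 0.24, adjusted p = 0.968). Irgm2 had -0.95 in HOMO (adjusted p = 0.0532) and -0.84 in HET (0.0832), Gbp7 -0.21 and -0.55 (adjusted p = 0.0534 in HET), Gbp2 -0.51 and -0.53, and Irgm1 -0.42 and -0.52. Without WT 2 the calls ended for Igtp in HOMO (-0.55, adjusted p = 0.193) and HET (-0.76, 0.0722) and for Gbp3 in HET (-0.23, 0.555); that of Igtp in HOMO also ended without HOMO 1 (0.0593), and that of Gbp3 without any 1 deletion library (0.0541 to 0.126). The gene property correction ended the HOMO call of Igtp (-0.71, 0.068). Igtp and Irgm2 overlap on the plus strand of chromosome 11 in the annotation and have near copies of the same upstream sequence, and the Gbp genes are close relatives, so the share of each is uncertain.

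Both subunits of the peptide transporter that feeds MHC class I were lower in HET, and Tap2 was lower in HOMO as well. Tap2 had 35.0, 35.9 and 27.4 CPM in HOMO and 33.6, 28.2 and 32.1 CPM in HET, against 58.0 and 75.1 CPM in WT. The highest deletion library was well below WT 1, with a log2 fold change of -1.02 in HOMO (SE 0.16, adjusted p = 0.00177) and -1.09 in HET (SE 0.16, adjusted p = 0.00123), the smallest adjusted p of the 41 genes in each comparison. Tap1 had 10.6, 13.8 and 7.35 CPM in HOMO and 9.12, 5.48 and 8.48 CPM in HET, against 13.4 and 30.3 CPM in WT. WT 1 lay inside the HOMO range, and the log2 fold change was -1.04 in HOMO (SE 0.37, adjusted p = 0.0597) and -1.51 in HET (SE 0.37, adjusted p = 0.0144). Without WT 2, Tap2 kept its call in HOMO (-0.79, adjusted p = 0.0123) and HET (-0.86, 0.00753), and the Tap1 call in HET ended (-0.77, 0.182), as it did without HET 2 (-1.31, 0.0524) and with the gene property correction (-1.12, 0.0701).

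**Figure D4:**
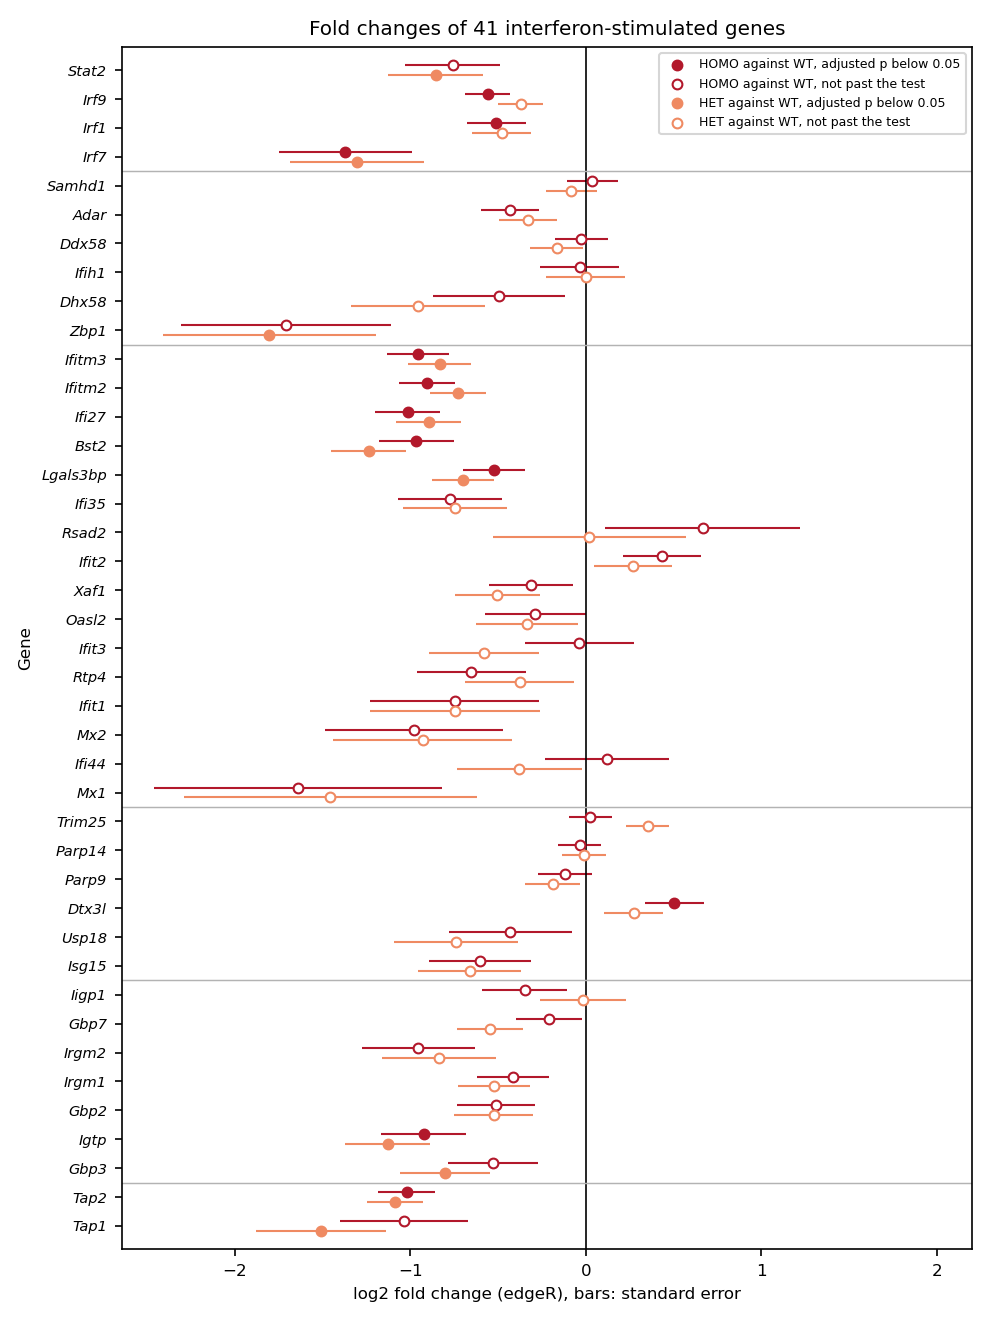
Log2 fold change of each of the 41 interferon-stimulated genes in HOMO and in HET against WT, with bars of 1 standard error, grouped by role; filled points passed adjusted p 0.05. Most points lie below 0 in both comparisons, which share the WT libraries, and Dtx3l is the one filled point above 0.

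Per length, the 4 highest levels of the set in each genotype were those of Ifitm3, Ifitm2, Bst2 and Ifi27, all of them called antiviral effectors. In CPM per kilobase of merged exons, Ifitm3 had 94.8 in HOMO, 103 in HET and 184 in WT, Ifitm2 had 91.4, 103 and 171, Bst2 had 28.0, 23.2 and 54.8 and Ifi27 had 18.2, 19.8 and 36.9 in the same order. The fifth called effector, Lgals3bp, had 9.92, 8.797 and 14.3, below Trim25 (14.7, 18.4 and 14.5) and Ifi35 (10.9, 11.2 and 18.8), which did not pass the test. The set median was 4.13, 4.13 and 4.96 CPM per kilobase. At the lower end, Mx1 had 0.149, 0.174 and 0.473 and Zbp1 0.211, 0.201 and 0.702. Members that lie side by side in the genome did not always behave alike: the Tap1 and Tap2 pair (GENCODE vM21 on GRCm38, chr17:34187553-34216321) and the Ifitm2 and Ifitm3 pair (chr7:140954837-141010770) had values below 0 throughout, whereas the Ifit genes (chr19:34550694-34650009) and the group of Parp14, Dtx3l and Parp9 (chr16:35832874-35972605) had values on both sides of 0.

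Homozygous and heterozygous hearts were not told apart in any interferon-stimulated gene. None of the 41 passed edgeR's quasi-likelihood test, 0% of all tested genes did, and DESeq2 and limma-voom also called 0 of the 41. At an unadjusted p under 0.05 there was 1 gene (2.73% of all tested genes), Trim25, whose HOMO libraries were all below its HET libraries. Its log2 fold change was -0.33 (SE 0.11, adjusted p = 0.9996 by edgeR), and no other member had a smaller adjusted p. Over the 41 genes the log2 fold change lay between -0.33 and 0.65, with a median of 0.07 (all tested genes 0.00) and standard errors of 0.11 to 0.77, and 24 genes were above 0 and 17 below (49.6% and 50.4% of all tested genes). The median standard error was 0.22, and differences as large as 0.65 for Rsad2 and 0.54 for Ifit3 did not pass the test. Ifit3 and Bst2 had every HOMO library above every HET library and Trim25 every one below, beside 6.19% and 5.15% of all tested genes. Ifit3 had 10.2, 12.5 and 9.38 CPM in HOMO against 8.21, 5.45 and 8.45 CPM in HET. Genes that passed against WT in 1 genotype and not in the other (Irf1, Irf9, Dtx3l, Stat2, Gbp3, Tap1 and Zbp1) are thus not shown to differ between HOMO and HET.

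How far the set lay below WT depended on which WT library stood for the wild type. WT 2 was at least 1.5 times WT 1 in 19 genes, with ratios from 0.547 for Rsad2 to 3.29 for Ifit1. The median log2 ratio of WT 2 to WT 1 was 0.44 in the set and -0.01 in all tested genes. WT 2 was above all 6 deletion libraries in 33 genes (80.5%, beside 35% of all tested genes) and WT 1 in 16 (39%, beside 29.3%). Without WT 2, 4 genes were lower and 1 higher in HOMO (median log2 fold change -0.10, 25 of 41 below 0), where 3.58% of all genes then tested were lower and 10.1% higher. In HET 3 were lower and 0 higher without it (median -0.20, 31 of 41 below 0), beside 4.62% and 10.5% of all genes. Without WT 1, 20 were lower and 1 higher in HOMO (median -0.71), beside 16.6% and 19.8% of all genes, and 23 were lower and 1 higher in HET (median -0.78), beside 16.7% and 19.2%. With WT 2 left out, the SE and p rest on the deletion libraries and the lone WT library is assumed to vary as they do. Of the 23 calls against WT, 6 were kept without each of the 8 libraries in turn: Ifi27, Ifitm2, Ifitm3 and Tap2 in HOMO and Bst2 and Tap2 in HET. Other choices of scaling, filter, tool or groups fitted ended the calls of Irf1, Lgals3bp and Dtx3l in HOMO and of Stat2, Gbp3 and Zbp1 in HET, at adjusted p of 0.0516 to 0.0852. With the correction for gene properties 6 genes were lower in HOMO (beside 5.56% of all genes then tested, with 8.75% higher) and 6 in HET (5.36% lower and 8.09% higher), with medians of -0.43 and -0.49. Of these, 3 in HOMO and 4 in HET had also passed without the correction. The added ones were Gbp7 (-0.80, adjusted p = 0.027 in HOMO; -1.16, 0.00706 in HET), Parp14 in both genotypes and, in HOMO, Irgm2 (-1.14, 0.0497). With the correction and without WT 2 there were 0 in each (medians -0.13 and -0.22), where 1.13% of all genes were lower and 4.57% higher in HOMO, and 1.22% and 4.24% in HET.

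**Figure D5:**
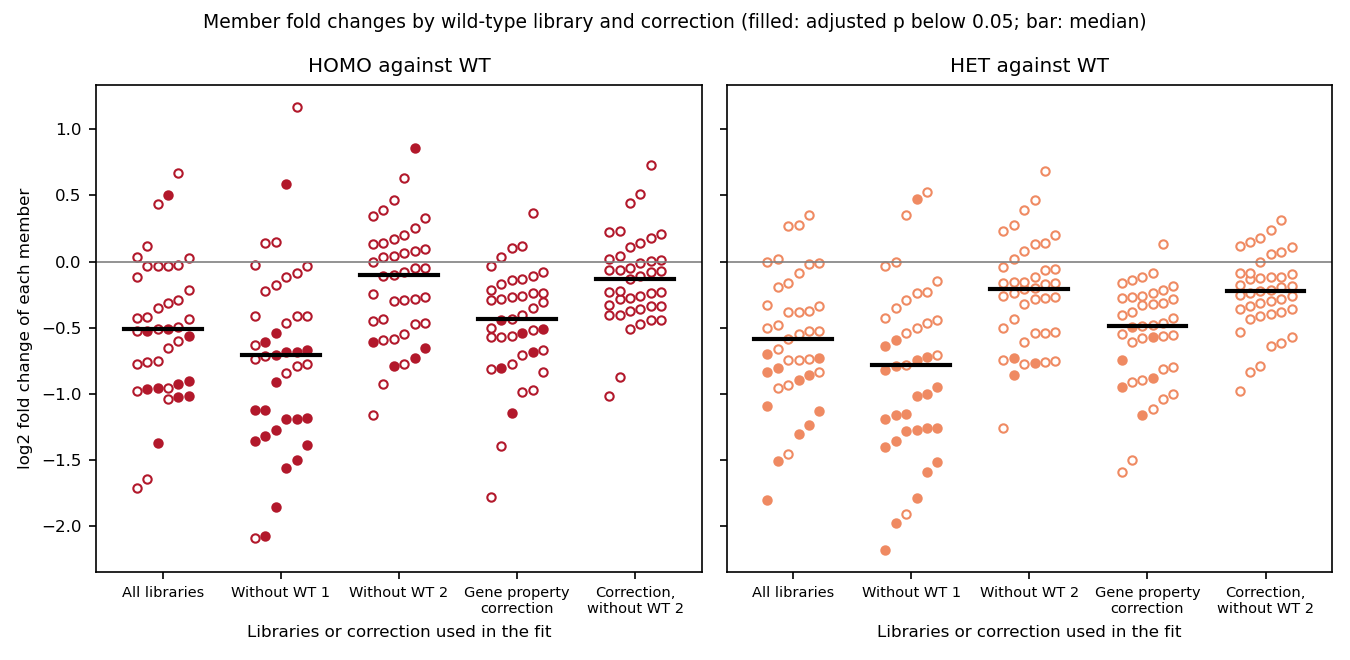
Log2 fold change of each of the 41 interferon-stimulated genes in HOMO (left panel) and HET (right panel) against WT in 5 fits: with all libraries, without WT 1, without WT 2, with the gene property correction, and with that correction without WT 2. Filled points passed adjusted p 0.05 and bars mark medians, which lie lowest without WT 1 (-0.71 in HOMO and -0.78 in HET) and nearest to 0 without WT 2 (-0.10 and -0.20).

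Interferon genes themselves had almost no counts, and the receptors and kinases upstream did not follow the set. Of 10 interferon genes in the table (Ifnb1, Ifna1, Ifna2, Ifna4, Ifna5, Ifnk, Ifne, Ifng, Ifnl2 and Ifnl3), 9 had no count in any library and Ifnk had 1 count in HET 1. A count of 0 allows up to 3 counts a library. Of the 38 receptor, signalling and nucleic acid sensing genes tested, 9 were higher (23.7%, beside 15.3% of all tested genes) and 5 lower (13.2%, beside 12.4%) in HOMO, with a median of 0.10. In HET 12 were higher (31.6%, beside 15.2%) and 7 lower (18.4%, beside 12.8%), with a median of 0.26. Without WT 2 the medians were 0.08 in HOMO and 0.13 in HET, and with the gene property correction 0.03 and 0.06. The type I receptor chains Ifnar1 and Ifnar2 had log2 fold changes of -0.08 and -0.28 in HOMO and -0.17 and -0.21 in HET, none past the test.

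Jak2, a kinase of the interferon gamma receptor, was higher in HOMO (0.60, SE 0.12, adjusted p = 0.00601) and HET (0.56, SE 0.12, 0.00736), and Ptpn11, which encodes the phosphatase SHP2, was higher in both (0.86, SE 0.18, 0.00685; 0.84, SE 0.18, 0.00734). Irf3, the factor that switches on Ifnb1 after nucleic acid sensing, was lower in HOMO (-0.96, SE 0.15, adjusted p = 0.00194) and HET (-1.02, SE 0.15, 0.00132), while the pattern receptor Tlr4 (0.84 and 0.92, both SE 0.15) and the adaptor Traf3 (0.76 and 0.74, both SE 0.14) were higher. Rnaseh2a, listed with the sensing genes, was also lower in HOMO (-1.03, adjusted p = 0.00387) and HET (-0.99, 0.00436). None of these calls ended without a single library. With the correction for gene properties the calls of Jak2 (0.16, adjusted p = 0.375 in HOMO; 0.13, 0.477 in HET) and Tlr4 (0.30, 0.214; 0.36, 0.142) ended. Rnaseh2c was lower in HOMO (-1.10, adjusted p = 0.00726) and HET (-0.91, 0.0167), with -0.59 and -0.40 without WT 2. The correction ended both of its calls (-0.51, 0.122 in HOMO and -0.29, 0.385 in HET). Its HET call also ended without HET 1 (-0.79, 0.0556). Of the 20 nucleic acid sensing genes, 5 were lower in each genotype (25%, beside 12.4% of all tested genes in HOMO and 12.8% in HET). In HOMO 4 were higher (20%, beside 15.3%) and in HET 6 (30%, beside 15.2%).

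Other interferon-induced genes outside the 41 gave more lower than higher calls. Of 76 tested, 13 were lower (17.1%, beside 12.4% of all tested genes) and 1 higher (1.32%, beside 15.3%) in HOMO, with a median log2 fold change of -0.49. In HET 17 were lower (22.4%, beside 12.8%) and 2 higher (2.63%, beside 15.2%), with a median of -0.53. Called in either direction were 18.4% in HOMO and 25% in HET, which is under the 27.7% and 28% of all tested genes. Psmb8, a catalytic subunit of the immunoproteasome, had 11.7, 15.1 and 10.9 CPM in HOMO and 9.30, 11.2 and 12.2 CPM in HET, against 20.3 and 42.7 CPM in WT. B2m, the light chain of MHC class I, had 166, 232 and 169 CPM in HOMO and 186, 162 and 148 CPM in HET, against 274 and 424 CPM in WT. Both had all deletion libraries below WT, with log2 fold changes for Psmb8 of -1.32 in HOMO (SE 0.28, adjusted p = 0.00705) and -1.53 in HET (SE 0.28, adjusted p = 0.00354), and for B2m of -0.88 in HOMO (SE 0.21, adjusted p = 0.0108) and -1.08 in HET (SE 0.21, adjusted p = 0.0042).

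Uba7, the activating enzyme of ISG15, was lower in HOMO (-0.95, adjusted p = 0.00987) and HET (-1.09, 0.00515), as were Tapbp, which bridges MHC class I to the peptide transporter (-0.51, 0.00984; -0.54, 0.00788), Shisa5 (-0.70, 0.00253; -0.75, 0.00167) and Parp10 (-0.71, 0.00789; -0.67, 0.00975). The higher genes were Ifit1bl1 in both and Ifit1bl2 in HET, named after their values were seen. Ifit1bl1 had a log2 fold change of 1.15 in HOMO and 1.29 in HET, and both calls ended without WT 2 (1.02, adjusted p = 0.0868; 1.16, 0.0537), the HOMO call also without HOMO 2 (0.95, 0.0595). Without WT 2 the HOMO calls ended for Psmb8 (-0.65, adjusted p = 0.0903), B2m (-0.50, 0.117), Uba7 (-0.46, 0.128) and Parp10 (-0.42, 0.093), and the HET call of Parp10 (-0.39, 0.114). The correction for gene properties ended the calls of Tapbp (-0.23, 0.172; -0.21, 0.21) and Parp10 (-0.35, 0.134; -0.29, 0.209) and the HOMO calls of Psmb8 (-0.78, 0.0673) and Uba7 (-0.62, 0.0645). Over the list, the median log2 fold change without WT 2 was -0.11 in HOMO and -0.27 in HET, beside 0.02 and 0.03 in all genes then tested.

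The summed markers of dendritic cells, endothelial cells and fibroblasts, and single markers of atrial muscle, were also below both WT libraries in all 6 deletion libraries. The 11 dendritic cell markers, of which Bst2 is also 1 of the 41, summed to 183 to 206 CPM in HOMO and 161 to 186 CPM in HET, against 240 CPM in WT 1 and 635 CPM in WT 2. Of the 11, 2 were lower in HOMO (18.2%, beside 12.4% of all tested genes). In HET 4 were lower (36.4%, beside 12.8%) and 1 higher (9.09%, beside 15.2%). Cd74, the invariant chain of MHC class II, had 84.8 to 91.9 CPM in HOMO and 78.2 to 87.0 CPM in HET, against 134 and 339 CPM in WT. The lineage markers Itgax, Flt3, Xcr1, Siglech, Ccr7 and Cd209a were each at or below 1.73 CPM in every library, and Cd209a was at 0 in HOMO 1. The 12 endothelial markers summed to 1849 to 2185 CPM in HOMO and 1736 to 2423 CPM in HET, against 2541 and 3028 CPM in WT. Of the 12, 5 were lower in HOMO (41.7%, beside 12.4%) and 4 in HET (33.3%, beside 12.8%). The 10 fibroblast markers summed to 2479 to 3310 CPM in HOMO and 2982 to 3554 CPM in HET, against 5048 and 4152 CPM in WT. Of the 10, 2 were lower in HOMO (20%, beside 12.4%) and 1 in HET (10%, beside 12.8%). The log2 fold change was above 0 in 2 of them in HOMO and in 4 in HET. Of the 8 atrial muscle markers tested, 5 were lower (62.5%) and 1 higher (12.5%) in each genotype. Of all tested genes, 12.4% were lower and 15.3% higher in HOMO, and 12.8% and 15.2% in HET. The median log2 fold changes of the atrial markers were -1.91 in HOMO and -1.87 in HET. Myl7, the atrial regulatory light chain, had 0.366, 0.279 and 0.177 CPM in HOMO and 0.272, 0.532 and 0.684 CPM in HET, against 6.59 and 14.2 CPM in WT. Sln, which encodes the atrial calcium pump regulator sarcolipin, was at 0 in HOMO 1, HOMO 3 and all 3 HET libraries and at 0.105 CPM in HOMO 2, against 2.93 and 5.27 CPM in WT. The summed atrial markers, of which Pam and Nppa made up most, overlapped between groups at 864 to 1165 CPM in HOMO, 828 to 1203 CPM in HET and 830 and 994 CPM in WT. The 16 macrophage markers summed to 623 to 646 CPM in HOMO and 617 to 907 CPM in HET, against 720 and 580 CPM in WT, so that WT 2 was the lowest of the 8 libraries. Of the 16, 2 were lower (12.5%, beside 12.4%) and 2 higher (12.5%, beside 15.3%) in HOMO. In HET 1 was lower (6.25%, beside 12.8%) and 3 were higher (18.8%, beside 15.2%). T and NK cell markers summed to 3.27 to 8.21 CPM, B cell markers to 5.34 to 12.1 CPM and neutrophil markers to 1.47 to 5.93 CPM over the 8 libraries, and the 6 adipocyte markers reached 17.9 CPM in WT 2 but at most 1.70 CPM in the other 7. The part of these cells in the lower interferon-stimulated genes was not tested.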

How the data were processed

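Hearts were homogenized in Trizol and TruSeq libraries were sequenced on an Illumina HiSeq, per the labels. What the authors deposited is a table of raw, unscaled counts by gene symbol for 8 libraries. The submitters' processing notes name the build mm10 and, with no order, DESeq2, featureCounts, Subread, HISAT2 and Trimmomatic 0.36; for annotation, strand setting and multiply mapped reads nothing is given in these sources. Reads shared by near copies could therefore be lost or split.

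In R 4.3.3, edgeR 4.0.16 was used with filterByExpr (minimum count 10) and TMM scaling. A single robust quasi-likelihood fit on genotype held all 8 libraries and was tested two-sided with Benjamini-Hochberg adjustment over 15075 genes at 0.05. Values after a log2 fold change in parentheses are adjusted p-values of that fit or of the named alternative. SE is the fold change divided by the square root of the F statistic. CPM are counts scaled to 1e6 per library. DESeq2 1.42.0 and limma-voom (limma 3.58.1) were alternatives, with other scalings, no filter, a non-robust fit, only the groups compared, a replicate block, each library left out, and a correction by natural splines (4 degrees of freedom each) for GC content and the lengths of transcript and 3′ UTR, taken from GENCODE vM21, in which 96.7% of symbols were found once (13874 genes tested). The correction without WT 2 was added after seeing the data. The code was tested on simulated data.

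The members, gene lists and marker lists were chosen with earlier results of these data known. Values in every library are given for members past the threshold in any comparison and for the member with the highest mean CPM in each role; other members by log2 fold change. Other genes named are up to 6 per list by smallest p; 1 gene that this rule covers is not reported here. The labels do not say beyond the litter whether libraries are separate animals, so p-values measure the spread between these samples. Promoter windows are from RefSeq (GRCm38.p6, 300 bases).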

Additional observations from a re-analysis of the deposited data

How the results depend on the processing

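No direction of a called interferon-stimulated gene was reversed under any alternative. Leaving out 1 library at a time gave 5 to 21 of these genes called in HOMO and 3 to 24 in HET, medians of -0.71 to -0.10 and -0.78 to -0.20, 4 to 26 and 10 to 33 other interferon-induced genes, 7 to 17 and 8 to 19 receptor and sensing genes, and 2135 to 5717 and 2359 to 5634 of all genes; the lowest counts came without WT 2, except for the 7, which came without HOMO 3. For HOMO against HET it gave 0 to 1 of all genes.

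With the gene property correction the counts in HOMO were 6, 7 other interferon-induced genes and 1985 of all 13874 genes tested, and in HET 6, 7 receptor and sensing genes and 1867 of all genes, while 10 receptor and sensing genes in HOMO and 18 other interferon-induced genes in HET (19 without the correction) were still called. With the correction and without WT 2 they were 0, 0, 3 receptor and sensing genes and 810 of all genes in HOMO (median -0.13), and 0, 2, 2 and 776 in HET (median -0.22). In a fit of only HET and WT, 9 receptor and sensing genes and 2668 of all genes were called. Between HOMO and HET, all genes called were 2 with no filter, 3 by DESeq2, 1 by limma-voom, 1 with the correction and 1 with the correction without WT 2. Named for another list, Pias1 reversed under the correction (-0.015 in HOMO, -0.056 in HET; -0.11 and -0.15 without WT 2 as well), and Rnaseh2c in HET under the correction without WT 2 (0.054). The cause of these changes was not tested.

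Replicate numbers are shared by the groups, and same-numbered libraries deviated together only weakly (correlations of deviations -0.02 to 0.18). Differently numbered libraries were not compared in this way, so whether the numbers pair the samples was not tested. With a replicate block 11 of the 41 were called in HOMO (7 of them shared with the unblocked fit) and 8 in HET (7 shared), and 0 between HOMO and HET. The block ended the calls of Irf7 (adjusted p = 0.0649), Irf1 (0.091), Lgals3bp (0.11) and Dtx3l (0.0898) in HOMO and of Irf7 (0.107), Lgals3bp (0.0505), Tap1 (0.0559), Gbp3 (0.0927) and Zbp1 (0.0939) in HET, and added Stat2, Irgm2 and Ifi35 as lower and Rsad2 as higher in HOMO, and Ifi35 as lower in HET. DESeq2 called 16 in HOMO and 18 in HET, and 4874 and 4943 of all genes. With 2 WT libraries, every comparison with WT rests on few samples, and genes near 1 CPM, such as Mx1 and Zbp1, have the widest errors.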
